A study of Mus musculus with 4 samples.

Results

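Nuclear-encoded subunits of mitochondrial respiratory chain complexes I to IV were followed across 4 cultures of mouse aortic vascular smooth muscle cells. The genes were chosen by name, as those whose RefSeq accession gave a symbol beginning Nduf with a, b, c, s or v and a number, the symbols Sdha to Sdhd, and symbols beginning Uqcr or Cox4 to Cox8. This took 67 of 21367 genes with a probe on the array, read by 86 probes. Of these 67 genes 35 belonged to complex I, 4 to complex II, 8 to complex III and 20 to complex IV or its isoforms. Ndufb1, Ndufb4b and Ndufb4c match the rule but were not analysed here, and neither were the subunits encoded by mitochondrial DNA. The rule also leaves out Ndufab1 of complex I and Cyc1 of complex III, which are nuclear-encoded. They were placed in the list of electron carriers and coenzyme Q genes.

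The 4 groups were LAMP-2A knockout (L2AKO) cells with LDL, L2AKO control cells, wild type (WT) cells with LDL and WT control cells, all labelled C57BL/6J. LDL was added to 150 µg/ml of its cholesterol, with bovine lipoprotein lipase at 0.1 U/ml. All cultures were kept in 5% lipoprotein-deficient serum over these 24 h. The sources used here do not say whether control cells had the lipase as well. Cells came from 5 aortas and were used at passages 12 to 16, and every array carried RNA pooled over a triplicate, so each group was 1 pooled sample without replicate error or a test. With 1 cell line per genotype, a genotype difference is a difference between these cultures.

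Complex I takes electrons from NADH and complex II from succinate, both pass them to ubiquinone, complex III hands them on to cytochrome c, and complex IV reduces oxygen. Complexes I, III and IV pump protons across the inner membrane, and ATP synthase uses the gradient. Each complex except complex II joins a few subunits made inside the mitochondrion to nuclear-encoded ones, and several complex IV subunits exist as alternative forms used in heart, muscle, lung or testis.

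Processed signals had a 75th percentile of 433.8 for L2AKO LDL, 389.4 for L2AKO control, 370.6 for WT LDL and 318.8 for WT control, with 47.2% to 52.0% of probes well above background and no saturated spot. The L2AKO LDL array lay on a slide of its own, scanned apart from the other 3 arrays, and 7 of 8 spike-in controls on it lay outside the range of the others, so slide and group cannot be told apart in any comparison that uses it. Lamp2, the targeted gene, had a probe at 2.41 in L2AKO LDL and 2.30 in L2AKO control, against 3.74 in WT LDL and 3.68 in WT control (log2 signal minus the 75th percentile of the array, the scale of all levels below). Its brighter probe read 6.09 and 6.33 in those L2AKO arrays, against 6.38 and 6.29 in WT LDL and WT control, and the sources used here do not place either probe relative to the deletion. Of 10 contractile smooth muscle markers, Acta2, Tagln, Cnn1, Myl9, Smtn and Actg2 were well above background on all arrays, while Myh11, Des, Lmod1 and Myocd were below it on all of them. The 5 proliferation markers had median differences of -2.75 with LDL and -3.36 without it in L2AKO against WT. Of 7 measured adventitial fibroblast markers 2 were at least 1.5-fold higher in L2AKO and 4 lower with LDL, and 2 and 3 without it, with Pi16 at 4.85 and 4.14, Serpinf1 at 4.49 and 4.28 and Dcn at -1.97 and -1.69. The macrophage markers Trem2 (2.49 and 3.39) and Cd68 (1.79 and 1.85) were higher, while Adgre1 and Ptprc were below background on all arrays. The 6 measured contractile markers, 3 higher and 3 lower in both comparisons, ran from -1.72 to 1.46 with LDL and from -1.73 to 1.27 without it. Of 5 endothelial markers, Cdh5 and Tek were below background on all arrays, and the others were within 1.5-fold except Vwf with LDL (1.10). Of 5 adipocyte markers only Fabp4 was measured between genotypes, at 1.30 and 1.87. Adipoq, Plin1 and Ucp1 were below background on all arrays. The part of these markers in the results below was not tested. In such bulk samples, fewer cells of a kind and less RNA per cell cannot be told apart.

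Most of the respiratory chain was measurable, and most members stayed within 1.5-fold in each comparison. Of the 67 genes, 63 were well above background on all 4 arrays. The remaining 4 were below background on every array: Cox6a2 and Cox8b, the heart and muscle forms of subunits VIa and VIII, and Cox7b2 and Cox8c, known from testis. Of 7 skeletal and cardiac muscle markers, Acta1, Myh7, Tnni3 and Tnnt2 were well above background on all arrays and Actn2, Ckm and Myh6 on none. Repeated spots of 1 probe on 1 array put the technical SD of a difference at 0.08 log2 units, an error within the array only.

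Between genotypes, few subunits differed by 1.5-fold. With LDL, 2 of 63 members were higher in L2AKO than in WT by 1.5-fold or more and 7 were lower by as much, that is 3.17% and 11.1% of them, where 16.9% and 20.5% of all 12936 measured genes were. With median scaling 5 members were higher and 4 lower with LDL, so the balance of the directions rests on the scaling there. The median probe of the arrays lay at -4.62 to -4.43, where the lowest values well above background ran from -5.08 to -4.23. Median scaling, here and below, is thus set by probes near background. Without LDL, where both arrays lay on 1 slide, 2 were higher and 9 lower (3.17% and 14.3%), against 15.2% and 16.6% of 12594 genes. The members' median was -0.07 with LDL and -0.16 without it, beside -0.05 and -0.01 for all measured genes, and with LDL it was 0.12 with median scaling, where that of all genes was 0.15. The members' differences had an SD of 0.40 and 0.35 over genes, beside 0.96 and 0.88. Below 0 were 41 members with LDL and 46 without it, beside 53.4% and 51.1% of all genes. With median scaling these were 23 and 37, beside 40.2% and 43.8%. By more than 0.152, which is 2 technical SDs, 25 were lower and 17 higher with LDL, beside 42.9% and 36.6% of all genes. Without LDL 32 were lower and 8 higher, beside 38.8% and 36.8%. The 7 members lower with LDL were among the 9 lower without it, and the 2 higher ones were shared. Across the 63 members the genotype differences with and without LDL, which share no array but share the lines, correlated with r = 0.88 (Spearman rho = 0.83), beside r = 0.92 over 12492 genes.

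**Figure D1:**
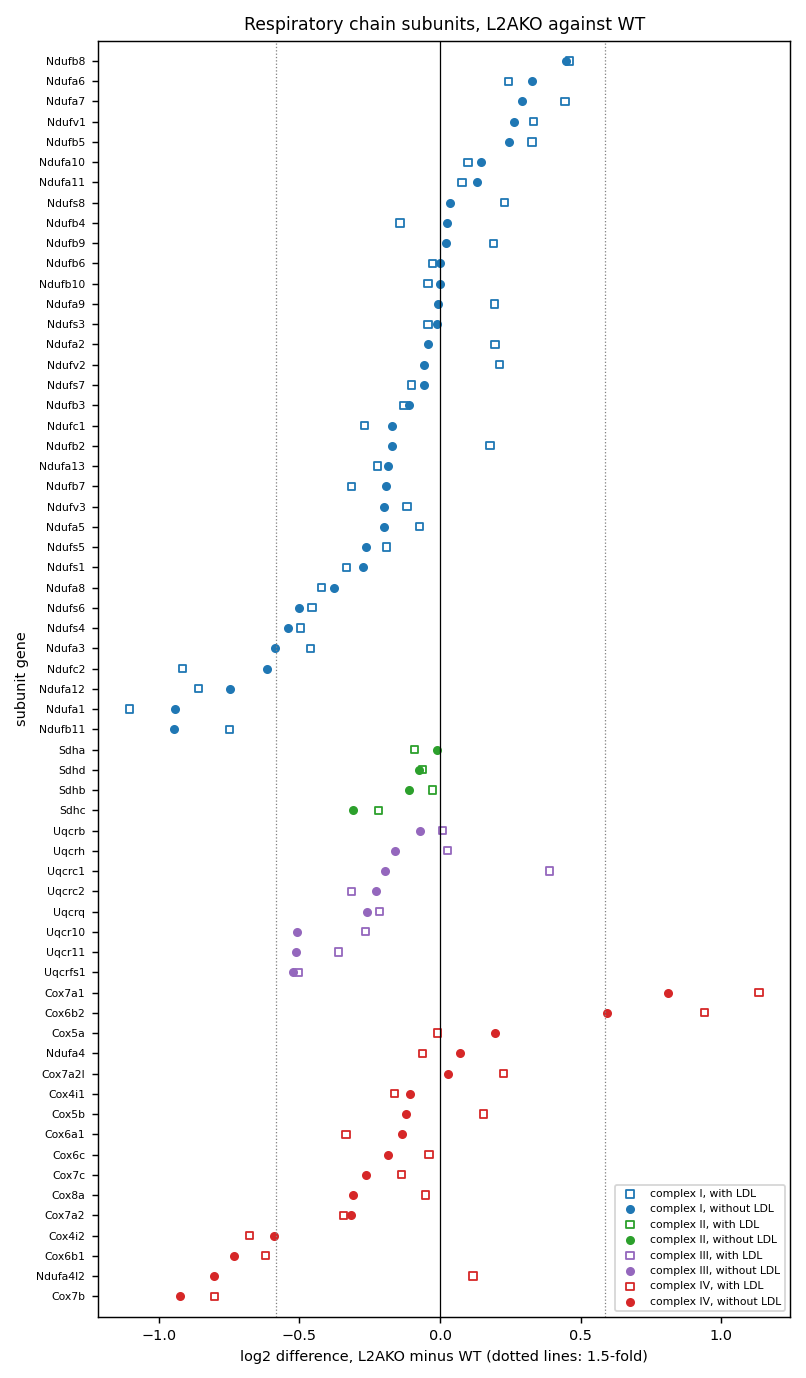
Log2 difference of L2AKO minus WT for the measured subunit genes, 1 gene left out, with LDL (open squares) and without LDL (filled circles), 1 array a group, grouped by complex. Most genes lie inside the dotted 1.5-fold lines, Cox7a1 and Cox6b2 lie to their right in both comparisons, and Ndufa1, Ndufb11 and Cox7b lie to their left in both.

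The catalytic core of complex I stayed close between genotypes. Ndufv1, which binds NADH and the flavin, differed by 0.33 with LDL and 0.26 without it. Ndufv2 differed by 0.21 and -0.06, and Ndufs1, which carries iron-sulfur clusters next to it, by -0.33 and -0.27. In the part that reaches ubiquinone, Ndufs3 differed by -0.04 and -0.01, Ndufs7 by -0.10 and -0.06, and Ndufs8 by 0.23 and 0.03. None of these core genes reached 1.5-fold.

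Among 9 accessory subunits of the matrix arm, Ndufa12 stood lowest. Ndufa12 had 5.72 in L2AKO LDL and 6.07 in L2AKO control, against 6.58 in WT LDL and 6.82 in WT control. It was lower in L2AKO than in WT by 1.81-fold with LDL (-0.86) and 1.68-fold without it (-0.75). Ndufs6, a zinc-binding subunit of the same arm, differed by -0.46 and -0.50, and Ndufs4 by -0.50 and -0.54. Ndufaf2, an assembly factor and paralogue of Ndufa12, differed by -0.61 and -0.54. Ndufa7 (0.44 and 0.29) and Ndufa6 (0.24 and 0.33) lay on the other side.

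The 19 accessory subunits of the membrane arm held the lowest values of complex I. Ndufa1 had 5.08 in L2AKO LDL and 5.46 in L2AKO control, against 6.19 in WT LDL and 6.41 in WT control. Ndufb11 had 6.50 and 6.55 in these L2AKO arrays, against 7.25 in WT LDL and 7.49 in WT control. The differences with LDL and without it were -1.10 and -0.94 for Ndufa1 and -0.75 and -0.95 for Ndufb11. With median scaling the value of Ndufb11 with LDL was -0.55, under 1.5-fold. Ndufc2 was at 5.12 in L2AKO LDL and 5.51 in L2AKO control, against 6.04 in WT LDL and 6.13 in WT control. Its difference was -0.92 with LDL and -0.62 without it, and without LDL it was -0.53 with median scaling. Ndufa3 differed by -0.46 and -0.59, and the second value was -0.50 to -0.57 in 5 alternative settings. Ndufb8 was the highest of the arm, with 6.16 in L2AKO LDL and 6.27 in L2AKO control, against 5.70 in WT LDL and 5.82 in WT control, differences of 0.46 and 0.45. Ndufb5 followed at 0.33 and 0.25.

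Complex II, which is also an enzyme of the citric acid cycle and is wholly nuclear-encoded, was the most even. The flavoprotein Sdha differed by -0.09 with LDL and -0.01 without it, and the iron-sulfur subunit Sdhb by -0.03 and -0.11. The membrane anchors Sdhc and Sdhd differed by -0.22 and -0.31, and by -0.06 and -0.08. All 4 were below 0 in both comparisons in the 75th percentile scaling, by amounts under 1.5-fold. With median scaling Sdha, Sdhb and Sdhd were above 0 with LDL, and Sdha and Sdhd without it.

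In complex III no member reached 1.5-fold between genotypes. Uqcrfs1, the Rieske iron-sulfur protein that takes the electron from ubiquinol, had 4.95 in L2AKO LDL and 4.96 in L2AKO control, against 5.45 in WT LDL and 5.48 in WT control. Its difference was the lowest of the complex in both comparisons, at -0.50 with LDL and -0.52 without it. The small subunits Uqcr11 and Uqcr10 differed by -0.36 and -0.51, and by -0.27 and -0.51. Both other probes of Uqcr10 were lower too, by -0.47 and -0.50 and by -0.75 and -0.67. Uqcrc1, a core protein, differed by 0.39 with LDL and -0.20 without it, whereas Uqcrc2, the other core protein, differed by -0.31 and -0.23.

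In complex IV, the Cox6b and Cox7a pairs of alternative subunits differed in opposite directions, and the Cox4 pair in the same direction, except that Cox4i1 was above 0 with LDL under median scaling. Cox6b2, the testis form of subunit VIb, had 0.92 in L2AKO LDL and 0.81 in L2AKO control, against -0.02 in WT LDL and 0.22 in WT control. Cox6b1, the general form, had 3.21 and 3.24 in these L2AKO arrays, against 3.83 in WT LDL and 3.97 in WT control. In L2AKO Cox6b2 was higher by 1.92-fold with LDL and 1.51-fold without it (0.94 and 0.60), and Cox6b1 lower by 1.54-fold and 1.66-fold (-0.62 and -0.73). The Cox6b1 difference with LDL was between -0.42 and -0.57 under 5 of the alternative settings.

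Cox7a1, the heart and muscle form of subunit VIIa, had -1.01 in L2AKO LDL and -0.99 in L2AKO control, against -2.14 in WT LDL and -1.80 in WT control. It was the highest member in L2AKO against WT in both comparisons, by 2.19-fold with LDL (1.13) and 1.75-fold without it (0.81). Without LDL the value was 0.53 after normexp correction and 0.58 in the authors' deposited values, under the 1.5-fold bound. Its general counterpart Cox7a2 was at 5.82 in L2AKO LDL and 6.03 in L2AKO control, against 6.17 in WT LDL and 6.35 in WT control, a difference of -0.34 and -0.32. Cox7a2l, a relative of these forms, differed by 0.22 and 0.03.

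Cox4i2, the lung form of subunit IV whose transcript is known to respond to oxygen, had -1.69 in L2AKO LDL and -1.52 in L2AKO control, against -1.01 in WT LDL and -0.92 in WT control. The differences were -0.68 with LDL and -0.59 without it, and without LDL the value was -0.41 to -0.58, under 1.5-fold, in 5 alternative settings. The general form Cox4i1 differed by -0.16 and -0.11. Ndufa4l2, a hypoxia-induced relative of Ndufa4, had -2.58 in L2AKO LDL and -2.59 in L2AKO control, against -2.70 in WT LDL and -1.79 in WT control. The WT control value stood apart from the other 3, so its genotype difference was 0.12 with LDL and -0.80 without it, the second at -0.33 after normexp correction and -0.45 in the authors' deposited values. Ndufa4 itself, now placed in complex IV, differed by -0.06 and 0.07.

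**Figure D2:**
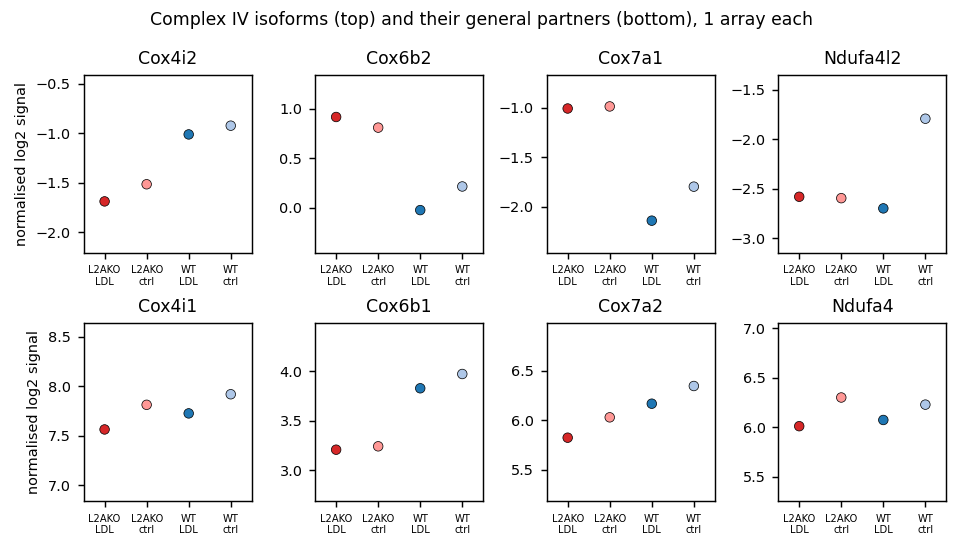
Normalised log2 signal of 4 alternative forms (top row) and of their general partners (bottom row) on each array, 1 point an array, with L2AKO LDL, L2AKO control, WT LDL and WT control from left to right. Every panel spans the same range, levels are not to be compared between panels, and Cox6b2 and Cox7a1 are higher in L2AKO where Cox6b1 and Cox7a2 are lower.

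Of the other general subunits of complex IV, Cox7b was lowest in L2AKO. It had 5.66 in L2AKO LDL and 5.76 in L2AKO control, against 6.46 in WT LDL and 6.68 in WT control, which gave -0.80 with LDL and -0.92 without it. Cox5a, which binds the haem-carrying core, differed by -0.01 and 0.19, Cox5b by 0.15 and -0.12, Cox6a1 by -0.33 and -0.13, Cox6c by -0.04 and -0.18 and Cox8a by -0.05 and -0.31. Cox7c was read by 3 probes that disagreed in size, with -0.14 and -0.26 on the brightest and with -0.97 and -0.65, and -0.66 and -0.74, on the others.

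Of the members at 1.5-fold between genotypes, several lay on chromosomes X and 7, and Ndufa12, Ndufa4l2 and Cox4i2 lay on others. Cox7b, Ndufa1 and Ndufb11 are the 3 members on the X chromosome, on which Lamp2 also lies, and they were the 3 lowest members in L2AKO against WT without LDL, at -0.92 to -0.95. With LDL they were at -0.75 to -1.10. The 392 other measured genes of the X chromosome had a median of -0.53 without LDL, 47.2% of them at least 1.5-fold lower in L2AKO, and 406 such genes had a median of -0.69 with LDL, 54.2% of them lower. Measured against the median of their chromosome, the X-linked members were at -0.06 to -0.42 with LDL and at -0.40 to -0.42 without it. In human patients, loss of NDUFB11 or COX7B is a cause of X-linked linear skin defects, and NDUFA1 a gene of complex I deficiency.

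On chromosome 7, the 6 measured members split. Cox6b1, Ndufc2, Ndufa3 and Uqcrc2 were lower in L2AKO in both comparisons and Cox6b2 and Cox7a1 higher. The other genes of this chromosome had medians of -0.35 with LDL and -0.32 without it, so that Cox7a1 stood 1.48 and 1.14 above its chromosome's median and Cox6b2 stood 1.29 and 0.92 above it. Relative to the same medians, Cox6b1 was at -0.27 and -0.41, Ndufc2 at -0.57 and -0.29 and Ndufa3 at -0.11 and -0.26. Uqcrc2 was at 0.03 and 0.10. Ndufa12 and Ndufa4l2 lie on chromosome 10, whose other genes had medians of -0.10 and -0.05. Relative to that, Ndufa12 stayed at -0.76 with LDL and -0.70 without it. Uqcrfs1, Ndufs4, Ndufs6 and the assembly factor Ndufaf2 lie on chromosome 13, whose other genes had medians of -0.35 and -0.20. Relative to these, Uqcrfs1 was at -0.16 and -0.32, Ndufs4 at -0.15 and -0.34 and Ndufs6 at -0.11 and -0.30. Sdha and Uqcrb, on chromosome 13 too, stood above its median in both comparisons. Uqcr10 was lower than Uqcrfs1 on this measure, at -0.30 and -0.54. Chromosome 12, where other genes had medians of 0.80 and 0.90, carries no measured member. Once each member was set against the median of its own chromosome's other genes, 4 members were at least 1.5-fold higher and 1 lower with LDL, and 3 higher and 2 lower without it. The like share of all genes is not given here, so these counts have nothing beside them. Ndufa12 was the one lower in both, with Ndufa4l2 added without LDL, and Cox6b2, Cox7a1 and Ndufb8 were higher in both, with Ndufb5 added with LDL. The medians of the members relative to their chromosomes were -0.06 and -0.20. The part of these chromosome-wide shifts in the members' differences was not tested.

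**Figure D3:**
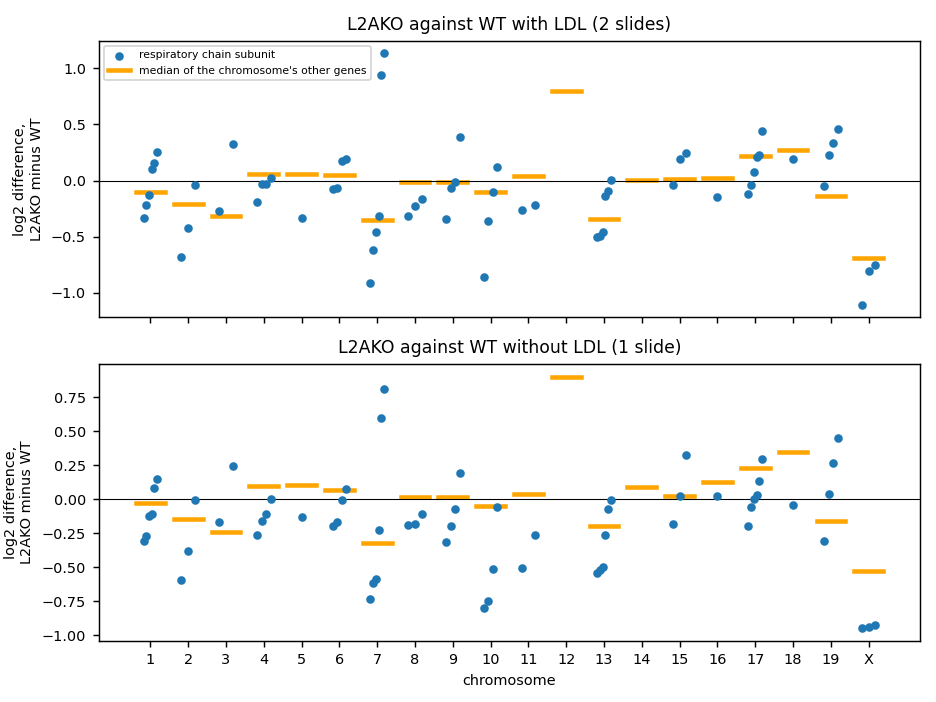
Log2 difference of L2AKO minus WT for the 63 measured subunits (points) by chromosome, with LDL above and without LDL below, beside the median of all other measured genes of the chromosome (orange bars), 1 array a group. The X-linked members lie with a chromosome whose median is -0.69 and -0.53, and the chromosome 7 members lie on both sides of a median of -0.35 and -0.32.

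The promoter letters of the X-linked members are shown because these genes had like differences, and those of Cox6b1 and Cox6b2 because these forms lie on 1 chromosome and differed in opposite directions. Each run is the 250 bases before the RefSeq start on GRCm38.p6, 5′ to 3′ along the gene. Capitals mark matches on either strand to the ETS core GGAAG, the SP1 core GGGCGG, the hypoxia core ACGTG or the palindromic NRF1 site. The windows are chrX:106015450-106015699 (plus strand) for Cox7b, chrX:37191239-37191488 (minus) for Ndufa1, chrX:20617620-20617869 (minus) for Ndufb11, chr7:30626115-30626364 (minus) for Cox6b1 and chr7:4753095-4753344 (minus) for Cox6b2.
Cox7b: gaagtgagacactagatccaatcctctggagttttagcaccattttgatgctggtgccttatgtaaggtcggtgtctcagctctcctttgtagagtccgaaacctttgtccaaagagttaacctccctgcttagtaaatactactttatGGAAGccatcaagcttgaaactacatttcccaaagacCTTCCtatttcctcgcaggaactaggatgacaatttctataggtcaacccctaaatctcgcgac
Ndufa1: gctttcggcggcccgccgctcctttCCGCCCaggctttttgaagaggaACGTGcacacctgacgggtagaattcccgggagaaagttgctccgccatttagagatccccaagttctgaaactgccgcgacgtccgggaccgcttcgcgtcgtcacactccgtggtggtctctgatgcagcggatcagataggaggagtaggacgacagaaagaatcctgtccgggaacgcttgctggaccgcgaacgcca
Ndufb11: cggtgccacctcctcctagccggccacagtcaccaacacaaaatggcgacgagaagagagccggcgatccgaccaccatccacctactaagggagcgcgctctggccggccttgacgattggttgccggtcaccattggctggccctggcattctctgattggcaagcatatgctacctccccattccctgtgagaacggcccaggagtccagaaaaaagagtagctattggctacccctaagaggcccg
Cox6b1: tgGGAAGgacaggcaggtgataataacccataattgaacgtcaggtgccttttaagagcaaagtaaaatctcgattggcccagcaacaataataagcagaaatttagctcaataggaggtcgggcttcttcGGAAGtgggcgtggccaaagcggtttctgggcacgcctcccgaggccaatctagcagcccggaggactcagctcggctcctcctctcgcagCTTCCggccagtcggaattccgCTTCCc
Cox6b2: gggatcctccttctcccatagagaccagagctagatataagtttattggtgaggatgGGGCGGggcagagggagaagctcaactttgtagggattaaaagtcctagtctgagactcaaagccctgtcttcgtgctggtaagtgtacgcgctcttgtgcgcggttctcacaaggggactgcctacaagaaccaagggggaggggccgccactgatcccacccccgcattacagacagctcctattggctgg
In the 250 bases printed, the X-linked genes shared no motif among those searched. There Cox7b held 2 ETS cores, Ndufa1 held 1 SP1 core and 1 hypoxia core, and Ndufb11 held none of the 4. In the 50 bases after the start, which are not printed, Ndufa1 held an ETS core, so over the longer window it shared that motif with Cox7b. Cox6b1 held 4 ETS cores and Cox6b2 held 1 SP1 core. RefSeq promoter windows were given for 53 of the 67 members, 55 windows in all, each running from 250 bases before to 50 bases after the start. The ETS core was in 69.1% of the members' windows and in 71.4% of all 32851 windows, the SP1 core in 41.8% and 35.7%, the hypoxia core in 21.8% and 19.6%, and the NRF1 site in 5.45% (3 windows, of Cox6a1, Ndufa11 and Uqcrc1) and 0.97%. Cores that overlap each other were counted for each. A match is a description of these letters only.

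The subunits answered LDL with small differences in both lines. In L2AKO, no member was at least 1.5-fold higher or lower with LDL than in control, where 3.34% and 4.55% of 13008 measured genes were, on arrays of different slides. In WT, on 1 slide, none was at least 1.5-fold higher and 1, Ndufa4l2, was lower, where 1.25% and 2.46% of 12978 genes were. The members' median was -0.10 in L2AKO and -0.15 in WT, beside -0.08 and -0.05 for all measured genes.

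In WT, all 63 members were lower with LDL than in control in this scaling, beside 60.7% of all measured genes, and 32 were lower and 0 higher by more than 2 technical SDs of a difference (0.152), beside 26.9% and 15.1% of all measured genes. The number below 0 was 55 when arrays were scaled over probes above background on all of them, 46 after quantile normalisation, 44 after normexp correction and 41 in the authors' deposited values, so the direction of many of these small differences rests on the scaling. Of all measured genes 46.9%, 49.0%, 48.9% and 48.5% were below 0 in these settings. Complex III had the lowest median, -0.24 over 8 genes, led by Uqcrc1 (-0.39), Uqcr11 (-0.31) and Uqcr10 (-0.28). Complex I, complex II and complex IV had medians of -0.15, -0.14 and -0.15. The core genes Ndufs8 (-0.30) and Ndufs1 (-0.02) spanned most of the range of complex I, and Sdha, Cox7c and Cox5a were nearest to 0, each at -0.01. The lower values were not particular to the subunits. In the main scaling 18 of 19 ATP synthase genes and 63 of 76 mitochondrial ribosome genes were below 0 too, with medians of -0.18 and -0.15. Of the citric acid cycle list 13 of 19 were below 0, and of the mitochondrial DNA and biogenesis list 9 of 21.

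In L2AKO, 50 of 63 members were lower with LDL than in control, beside 62.2% of all measured genes, and 20 were lower and 4 higher by more than 2 technical SDs, beside 38.3% and 19.8% of all measured genes. With median scaling 31 were below 0, beside 45.7% of all measured genes. The lowest were Ndufc2 (-0.39), Ndufa1 (-0.38), Ndufa12 (-0.35), Ndufb4 (-0.31) and Ndufa4 (-0.29). Among the highest were Ndufb2, a small membrane arm subunit (0.22), Uqcrc1 (0.19), Cox5b (0.16) and Ndufv2 (0.12). The 63 members' responses to LDL in L2AKO and in WT correlated with r = -0.06 (rho = 0.01), beside r = 0.34 (rho = 0.15) over 12492 genes, and 50 members were below 0 in both lines.

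**Figure D4:**
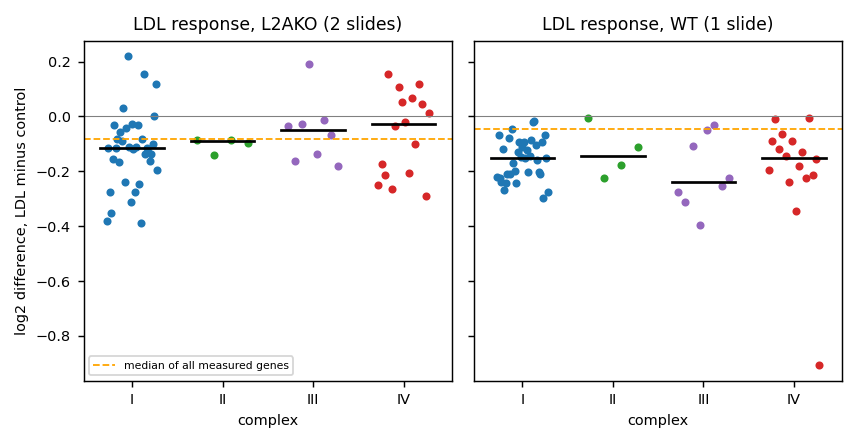
Log2 difference of LDL minus control for the 63 measured subunits by complex in L2AKO (left) and WT (right), 1 point a gene and 1 array a group, with the median of each complex (black bar) and of all measured genes (dashed line). All WT points lie below 0 in this scaling, with Ndufa4l2 lowest at -0.91, and L2AKO points lie between -0.39 and 0.22.

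Set against each other, the LDL responses of L2AKO and WT differed by at least 1.5-fold for 2 of 63 members, both higher, where 4.77% of 12492 measured genes were higher and 3.99% lower. Ndufa4l2 differed by 0.01 with LDL in L2AKO and by -0.91 in WT, a difference of responses of 0.92 that was 0.48 after normexp correction. It is a dim gene with 1 probe, at -1.79 to -2.70 where the lowest values well above background ran from -5.08 to -4.23. Uqcrc1 had 4.55 in L2AKO LDL and 4.36 in L2AKO control, against 4.16 in WT LDL and 4.56 in WT control, so that it was 0.19 higher with LDL in L2AKO and 0.39 lower in WT (log2 difference -0.39), a difference of responses of 0.59. It too was read by 1 probe. The members' median difference of responses was 0.07, beside -0.03 for all measured genes, and it was below 0 after quantile normalisation, after normexp correction and in the deposited values.

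For the 15 members with several probes, the 19 other probes lay on the side of the brightest probe in 17 cases for L2AKO against WT with LDL and in 16 without it, in 9 for the LDL response in L2AKO and in 18 for that in WT. Of the members at 1.5-fold between genotypes, 1 had another probe: that of Ndufb11 read -0.89 with LDL and -0.87 without it. The other probe of Uqcrq was 0.59 in the difference of responses where the brightest was 0.05.

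The genes that build and feed the chain went both ways between genotypes, as all measured genes did. Of all measured genes 16.9% were at least 1.5-fold higher in L2AKO with LDL and 20.5% lower. Without LDL these shares were 15.2% and 16.6%, and the counts of each list below are to be set beside them. Of the measured assembly factors of complexes I and II, 3 of 21 were higher and 3 lower in L2AKO with LDL, and 1 and 2 without it. Nubpl, which delivers iron-sulfur clusters to complex I, was at 1.08 and 1.26, and Ndufaf5 at -0.73 and -0.76. Of the assembly factors of complexes III and IV, 3 of 28 were higher and 5 lower with LDL, and 2 and 2 of 27 without it. Cox16 was at 1.02 and 1.31 and Coa4 at -1.17 and -1.08. Cox17, a copper chaperone, was measured with LDL only, at 2.78, and its level in WT control was not well above background. In WT LDL it was at -4.09, near the lowest value well above background on that array (-4.40), so the size of its difference is uncertain. Nubpl and Cox16 lie on chromosome 12 and Coa4 on chromosome 7, whose medians are given above.

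ATP synthase had 3 of 19 higher and none lower with LDL, and 1 and 1 without it, with medians of -0.06 and -0.17. Atp5a1, the alpha subunit, was at 0.67 and 0.22 and Atp5md at -0.50 and -0.62. Among electron carriers and coenzyme Q genes, 3 of 20 were higher and 3 lower in both comparisons, with Pdss1, which makes the isoprenoid tail of coenzyme Q, at -1.67 and -1.25 and Coq8a at 0.79 and 0.98. That list also held the subunits Ndufab1, on chromosome 7, at -1.05 and -0.84, and Cyc1 at 0.36 and 0.30. The citric acid cycle list had 2 of 19 higher and 3 lower with LDL, and 3 and 3 without it. The isocitrate dehydrogenase gene Idh2 stood at -1.20 and -1.47, pyruvate carboxylase, Pcx, at -1.59 and -1.45 and Dld at 0.88 and 1.27. Dld lies on chromosome 12, whose other genes had medians of 0.80 and 0.90, and Idh2 on chromosome 7, with medians of -0.35 and -0.32.

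Of 76 measured genes of the mitochondrial ribosome, 2 were higher and 8 lower with LDL, and 1 and 5 without it, with medians of -0.09 in both. Mrps11 was at -0.73 with LDL and -0.96 without it, and Mrps12 was lowest without it, at -0.97. Regulators of mitochondrial DNA and biogenesis had medians of 0.16 and 0.34, with 4 of 21 higher and 1 lower in each comparison. Esrra, a nuclear receptor that drives respiratory genes, was at -0.80 and -0.83, and the mitochondrial transcription factor Tfam at 0.23 and 0.59. The coactivator gene Ppargc1a had -2.25 in L2AKO LDL and -1.79 in L2AKO control, against -2.66 in WT LDL and -2.57 in WT control, a difference of 0.41 and 0.78.

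The hypoxia target list, to which Cox4i2 and Ndufa4l2 were not assigned, had medians of -0.27 with LDL and -0.03 without it between genotypes. Of 21 measured genes 2 were higher and 5 lower with LDL, and 2 and 3 without it, with Egln3 on chromosome 12 at 2.11 and 2.20 and the glucose transporter Slc2a1 at -1.38 and -0.57. With LDL against control this list had medians of -0.30 in L2AKO and -0.26 in WT. At least 1.5-fold lower were 4 and 0 of its 21 measured genes, beside 4.55% and 2.46% of all measured genes. Hk2, the hexokinase that binds mitochondria, was at -1.24 in L2AKO and -0.40 in WT. Mitochondrial stress and protease genes had medians of 0.06 and -0.01 between genotypes, with Gdf15, a stress-secreted factor, at -1.55 and -1.50. Mitophagy and dynamics genes had medians of 0.20 and 0.13 between genotypes.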

How the data were processed

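Gene expression in the 4 groups was read on 1-colour Agilent 8x60K mouse arrays, 1 to a group. Per the file headers, Agilent Feature Extraction 10.7.3.1 produced the deposited scanner output, whose processed spot intensity is linear and background-subtracted. A value table by the authors, also deposited, has a linear intensity whose columns share 1 maximum (274707) and have medians of 57.4 to 57.6. It followed each array's median spot signal in rank, with a scaling not given in the sources used here. RMA and oligo are named in the submitters' processing notes, with no version.

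Control and outlier spots were left out, log2 values of repeated spots were averaged to 1 value a probe (55679 probes), and the 75th percentile of the array was subtracted. RefSeq accessions, without version, were matched to a gene table of GRCm38.p6: 28330 probes named 1 gene each, 21367 genes in all. A gene was read from its probe with the highest mean, and was measured in a comparison if each of its arrays had that probe well above background. A difference is the log2 value on 1 array minus that on another. With 1 pooled array a group there was no test between groups, and a count of higher or lower genes uses 1.5-fold. The technical SD of a difference came from probes printed at least 5 times on an array.

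The named genes are the members at 1.5-fold or more, the 5 highest and 5 lowest in each comparison, catalytic cores, isoform pairs, members below background, and up to 2 genes in each direction of each accompanying list. Of these genes only part is printed, and some items are not reported here. The members, lists and promoter motifs were chosen with earlier results of these data known. The differences were computed again under 9 alternatives, and without the members on chromosomes 7 and X, a setting added after the data were seen. The steps were tested on simulated data. The software was Python 3.11.15 (pandas 2.3.3, numpy 2.4.6, matplotlib 3.10.9) and, for normexp, limma 3.58.1 in R 4.3.3.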

Additional observations from a re-analysis of the deposited data

Results flagged for a closer look

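2 members lay on opposite sides of 0 in comparisons that share no array, by more than 2 technical SDs of a difference (0.152) on each side, and these differences between groups were not tested, as a group is 1 array here. Uqcrc1, the complex III core protein, differed between LDL and control by 0.19 in L2AKO and -0.39 in WT. Between L2AKO and WT it differed by 0.39 with LDL and -0.20 without it, values made from the same 4 arrays. Ndufb2 differed between L2AKO and WT by 0.18 with LDL and -0.17 without it. The positive value of each pair used the array on the separate slide. Of 63 members, 13 had opposite signs in each pair of comparisons (20.6%), beside 43.2% of 12492 genes for the LDL responses and 18.5% for the genotype differences.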

How the results depend on the processing

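Each group had 1 pooled array, so a difference below carries no replicate error, and the array on its own slide enters every comparison except WT LDL with control and L2AKO with WT without LDL. Medians of the respiratory chain subunits moved as follows. For the LDL response in WT the median was -0.15, and it moved to -0.060 with quantile normalisation, -0.050 with normexp added and -0.050 in the deposited values. For the LDL response in L2AKO it was 0.0061 with median scaling and -0.0047 when only probes above background on all arrays set the scale. For L2AKO against WT with LDL it was 0.12 with median scaling, beside 0.15 for all genes. Without LDL it was -0.072 with median scaling, beside 0.076 for all genes, and -0.077 in the deposited values, beside 0.015. Median scaling moves all genes of an array alike. The members' median minus that of all genes was thus -0.148 without LDL in it and in the main scaling. For the difference of responses it was 0.18 with median scaling, -0.017 in the deposited values, -0.025 after normexp and -0.012 after quantile normalisation.

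Counts at 1.5-fold moved too. With no filter on dim probes, 1 member was higher and 2 lower with LDL in WT, 1 higher and 1 lower in L2AKO, and 1 lower in the difference of responses. After normexp and in the deposited values 0 members were lower with LDL in WT. After normexp 1 member was higher in the difference of responses, and 1 higher and 5 lower in L2AKO without LDL, where the deposited values gave 1 higher. With median scaling 5 members were higher and 4 lower in L2AKO with LDL. Without the members on chromosomes 7 and X, a setting chosen after the data were seen, 0 were higher and 2 lower in L2AKO with LDL, and 0 higher and 3 lower without it. The causes of these shifts were not tested, except where fewer genes, another filter or another constant subtracted from an array make them by construction.

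The share of higher genes among all genes at 1.5-fold moved by over 10 percentage points in 4 comparisons. It was 42.3% for LDL in L2AKO and 62.0% with median scaling, 33.7% for LDL in WT, 43.8% when only probes above background on all arrays set the scale, 35.1% after quantile normalisation and 20.9% with normexp added, 45.1% for L2AKO against WT with LDL and 61.9% with median scaling, and 54.5% for the difference of responses and 74.8% with median scaling.

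Of 1755 values of named members under alternatives, 29 dropped under 1.5-fold, 6 came over it and none that reached 1.5-fold changed sign. Of 450 medians of accompanying lists, 52 had the opposite sign. No paired analysis was possible because each group had 1 array and no replicate numbers.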
